A study of Mus musculus with 6 samples.

Results

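Iron storage, iron transport and hepcidin genes were followed in livers of small Maf knockout and control mice. The list holds 10 genes (Hamp, Hamp2, Tfrc, Tfr2, Slc40a1, Fth1, Ftl1, Trf, Cp and Bmp6), and each was read by the array probes whose transcript accession maps to it. All 10 genes had a probe that passed the filter on dim signal, of 21064 genes and unmatched transcripts tested on the same arrays. The 6 one-colour Agilent arrays carried liver RNA from 3 mice with a liver-specific small Maf knockout (sMaf CKO), and from another 3 mice labelled control wild type. All mice were 5 weeks old and of a mixed background of the strains 129Sv/J, C57BL/6J and ICR. The labels name neither the deleted small Maf genes, the Cre driver nor the sex of the mice, and the submitters call the RNA samples of a genotype independent. No treatment is given for either genotype.

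Small Maf proteins are bZIP factors without an activation domain of their own, and they pair with NRF1, NRF2 and the Bach repressors at antioxidant response elements. The liver is the centre of body iron control. Hepatocytes secrete hepcidin, which binds the iron exporter ferroportin on macrophages, enterocytes and hepatocytes and has it degraded, so that less iron enters plasma. Hepcidin transcription is driven by BMP6 through SMAD proteins and by interleukin 6 through STAT3. Ferritin stores iron inside cells, transferrin carries it in plasma, and the transferrin receptors take it up or sense it. Ferritin and ferroportin genes are known targets of NRF2 in cells.

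A level below is the log2 of a probe's processed signal minus the 75th percentile of its array, so a level of 0 lies at that percentile. A difference is the mean level in sMaf CKO liver minus that in control liver, with its standard error (SE) from limma's fit across all genes, and an adjusted p is the Benjamini-Hochberg value in that fit. The number of arrays limits the precision. Slide 1 held replicates 1 and 2 of each genotype, and slide 2 held replicate 3 of each. The share of probes with signal well above background ranged from 58.0% to 73.6%, the lowest shares being on slide 2. Mafg, a small Maf gene, had levels of -2.97, -4.36 and -0.76 on sMaf CKO arrays 1, 2 and 3, against 1.88, 1.87 and 2.23 on control arrays 1, 2 and 3 (difference -4.69, SE 0.79, limma adjusted p = 0.0534). Mafg passed the threshold under 8 of 20 alternatives with a test, among them slide as a block (limma adjusted p = 0.0208). Mafk differed by 0.21 (SE 0.29, limma adjusted p = 0.759) and Maff by 0.15 (SE 0.51, limma adjusted p = 0.911), with signs that changed under some alternatives. Whether the Mafg probe lies in the deleted part is not given. All 4 Xist probes were well above background on all 6 arrays, and 5 of 6 probes of the Y-linked genes Ddx3y, Eif2s3y, Kdm5d and Uty were so on none. The exception was Eif2s3y, which was above background on control array 3 alone. In bulk liver RNA, fewer cells of a type and less RNA per cell cannot be told apart.

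None of the 10 iron genes differed past the threshold between the genotypes. With limma's test, 0 of 10 had an adjusted p under 0.05 and 1, Ftl1, had an unadjusted p under 0.05. Over all genes tested 16.8% had an unadjusted p under 0.05 and 0.541% were called, 81 of them higher and 33 lower in sMaf CKO liver. The levels of the genotypes were apart for 1 of the 10 genes (Ftl1), whereas 22.9% of all genes tested did not overlap. Of the 10 differences, 6 were negative and 4 positive, with a median of -0.21 against -0.05 over all genes. That median was 0.07 under quantile normalization, against 0.0002 over all genes, and 0.12 under spike-in scaling, against 0.28 over all genes. No iron gene was called under any of the alternatives with a test, and the lowest adjusted p among them was 0.175, for Tfr2 without sMaf CKO replicate 3.

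**Figure D1:**
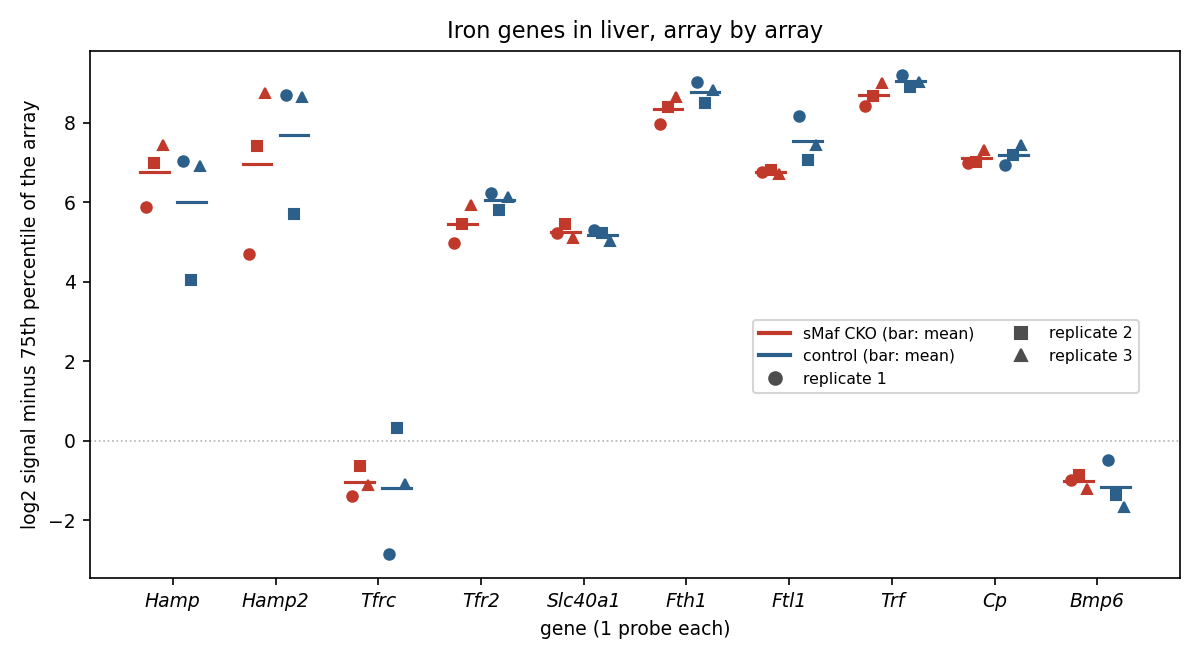
Level of each iron gene on every array (log2 processed signal minus the array's 75th percentile, vertical axis), with sMaf CKO arrays in red left of control arrays in blue. Symbols are replicates and bars are means of 3 arrays. Hamp, Hamp2 and Tfrc spread over more than 2 log2 units in at least 1 genotype, while Slc40a1 stayed between 5.02 and 5.46 on all arrays.

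The promoters of the hepcidin genes are shown because the hormone's main regulators act there and because Hamp and Hamp2 parted from each other in the values below. RefSeq windows on GRCm38.p6 were matched for 8 of the 10 genes. The 250 bases before the start site of Hamp lie on the minus strand at chr7:30944030-30944279, and those of Hamp2 on the minus strand at chr7:30924182-30924431. Capitals mark the BMP-responsive element GGCGCC and the STAT site TTCNNNGAA, searched on both strands.
Hamp: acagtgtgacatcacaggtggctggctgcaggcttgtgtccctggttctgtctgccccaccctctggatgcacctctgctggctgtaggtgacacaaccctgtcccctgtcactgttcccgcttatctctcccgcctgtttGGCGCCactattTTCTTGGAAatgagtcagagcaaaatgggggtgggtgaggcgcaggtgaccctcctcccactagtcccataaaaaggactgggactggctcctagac
Hamp2: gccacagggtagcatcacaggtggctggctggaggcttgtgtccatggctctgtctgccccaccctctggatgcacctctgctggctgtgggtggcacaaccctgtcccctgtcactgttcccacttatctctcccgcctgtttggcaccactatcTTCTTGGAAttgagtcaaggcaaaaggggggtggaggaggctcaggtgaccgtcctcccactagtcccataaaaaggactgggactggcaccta
The windows were identical at 227 of 253 alignment columns (89.7%). Both held the STAT site, as did 8.30% of 32851 promoter windows of all genes, which run from 250 bases before to 50 after a start site. The letters GGCGCC were found in the Hamp window and not in that of Hamp2, and in 11.9% of all windows. At that place the aligned Hamp2 window reads GGCACC, a difference written G145A, counted from 1 at the 5′ end of the printed Hamp sequence. Among the other members, Tfrc held GGCGCC, Bmp6 held the antioxidant response element core TGACNNNGC (12.4% of all windows), and Tfr2 held the Maf half-site TGCTGA (19.5%). The Tfr2 match lay after the start site, at base 42. Tfrc and Tfr2 had more than 1 window each, and their matches were not in every window. The shares count windows, not genes. These are letter matches and were not tested for binding.

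Hamp, which encodes hepcidin, had levels of 5.88, 6.99 and 7.44 on sMaf CKO arrays 1, 2 and 3, against 7.04, 4.03 and 6.90 on control arrays 1, 2 and 3. Control array 2 was low and the genotypes overlapped. The means were 6.77 ± 0.80 in sMaf CKO liver and 5.99 ± 1.70 in control liver (SD, n = 3 each), a difference of 0.78 (SE 0.81, limma adjusted p = 0.663). The 95% interval of the difference ran from -1.11 to 2.66. Without control replicate 2 the difference was -0.20, so its sign rested on that array. It was 0.90 within slide 1 and 0.54 within slide 2, where 1 array is set against 1.

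Hamp2 encodes the other mouse hepcidin, which did not lower body iron when overproduced in transgenic mice. Its levels were 4.70, 7.42 and 8.75 on sMaf CKO arrays 1, 2 and 3, against 8.69, 5.71 and 8.64 on control arrays 1, 2 and 3. The lowest values were those of sMaf CKO array 1 and control array 2, so the groups overlapped. The difference was -0.72 (SE 1.14, limma adjusted p = 0.784, 95% interval -3.37 to 1.93), with -1.14 within slide 1 and 0.11 within slide 2. Leaving out sMaf CKO replicate 1 gave 0.41.

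The values of the hepcidin genes parted on the sMaf CKO arrays and nearly coincided on the control arrays. Relative to the geometric mean of the control arrays, Hamp stood at 92.4%, 199% and 273% on sMaf CKO arrays 1, 2 and 3, against 207%, 25.7% and 188% on control arrays 1, 2 and 3. Hamp2 stood at 12.7%, 83.4% and 211% on sMaf CKO arrays 1, 2 and 3, against 201%, 25.5% and 195% on control arrays 1, 2 and 3. The log2 gap of Hamp2 to Hamp on the same array, with the control mean set to 0, was -2.87, -1.26 and -0.37 on the sMaf CKO arrays, against -0.04, -0.01 and 0.05 on the control arrays. The gap was below every control value on all 3 sMaf CKO arrays and averaged -1.50 ± 1.27 (SD, n = 3) there, against a control SD of 0.05 (n = 3). An exact two-sided permutation test gave p = 0.1, the smallest that 3 against 3 arrays allow. This pair was picked after its values were seen. Of 45 pairs of the 10 genes, 6 had gaps that did not overlap, and the lowest adjusted p over the pairs was 0.563 (exact permutation). The share of such pairs over all tested genes was not computed. A factor that scales a whole array cancels in the hepcidin gap. Under quantile normalization the gap was -2.91, -1.20 and -0.46 on the sMaf CKO arrays, against 0.0068, -0.024 and 0.017 on the control arrays. These values come from the same arrays and probes. Effects that differ between the probes do not cancel and were not tested. For each hepcidin gene 1 probe was available, and whether these separate the 2 close paralogs was not tested.

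**Figure D2:**
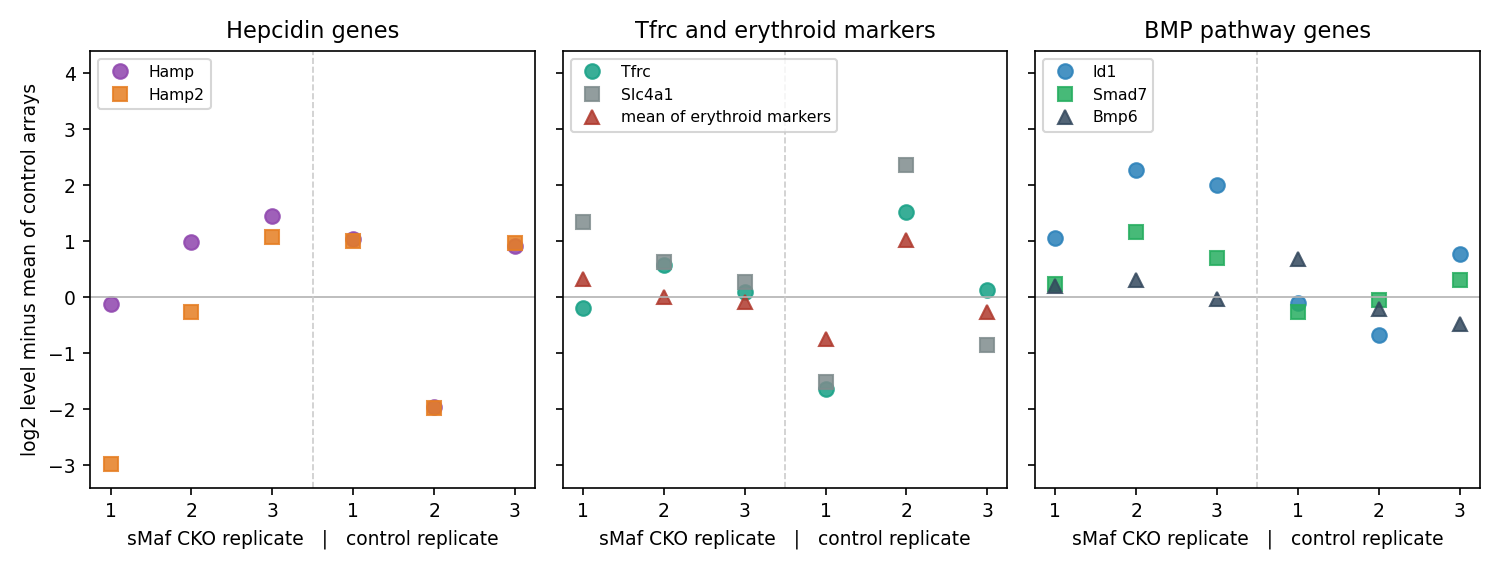
Log2 level on each array minus the mean of the 3 control arrays, for the hepcidin genes, for Tfrc with Slc4a1 and the mean of the erythroid markers, and for Bmp6 with Id1 and Smad7. In each panel the sMaf CKO arrays stand left of the control arrays. Hamp and Hamp2 coincide on the control arrays and part on sMaf CKO array 1, where Hamp2 lies 2.87 lower, and Tfrc and Slc4a1 are highest on control array 2.

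Slc40a1 encodes ferroportin, the iron exporter on which hepcidin acts. It had levels of 5.21, 5.46 and 5.10 on sMaf CKO arrays 1, 2 and 3, against 5.29, 5.22 and 5.02 on control arrays 1, 2 and 3. It was among the steadiest of the 10 genes, and the genotypes overlapped. The difference was 0.08 (SE 0.21, limma adjusted p = 0.883), and the 95% interval ran from -0.42 to 0.57. It was 0.08 within slide 1 and 0.07 within slide 2, and turned to -0.02 without sMaf CKO replicate 2. Ferroportin is also made by Kupffer cells, whose 8 tested markers all had positive differences (median 0.76, 3 at an unadjusted p under 0.05, 0 past the threshold). Their summed linear level ran from 194 to 426 on sMaf CKO arrays, against 82.7 to 140 on control arrays, in multiples of the array's 75th percentile. Marco, a scavenger receptor named after its values were seen, made up 20.5% to 48.4% of that sum on sMaf CKO arrays, against 2.83% to 10.5% on control arrays. Without Marco the sum was 154 to 220.0 on sMaf CKO arrays, against 80.3 to 130.4 on control arrays. Under quantile, median and spike-in scaling all 8 stayed positive. Positive differences were not particular to Kupffer cell markers. They were found for 6 of 6 stellate cell (median 0.63), 6 of 6 cholangiocyte (0.46) and 4 of 5 neutrophil markers (0.48). Endothelial markers were positive in 3 of 9, erythroid in 4 of 7 and hepatocyte markers in 0 of 6, against 9538 of 21064 genes tested. The stellate cell and cholangiocyte markers also stayed positive under these scalings. The part of Kupffer cells in the level of Slc40a1 was not tested.

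Bmp6 encodes the ligand, made in liver mainly by endothelial cells, that raises hepcidin when iron is plentiful. Its brighter probe had levels of -0.97, -0.86 and -1.21 on sMaf CKO arrays 1, 2 and 3, against -0.48, -1.38 and -1.65 on control arrays 1, 2 and 3. The genotypes overlapped, with a difference of 0.15 (SE 0.33, limma adjusted p = 0.845, 95% interval -0.60 to 0.91). It was 0.01 within slide 1, 0.44 within slide 2 and -0.09 without control replicate 3. The other Bmp6 probe, well above background on 2 arrays of each genotype, had the opposite sign (-0.30, not tested). Of 9 tested endothelial markers, 3 had positive and 6 negative differences, with 0 called by limma and 0 that had an unadjusted p under 0.05. Their summed level was 50.7 to 68.6 on sMaf CKO arrays, against 57.0 to 79.1 on control arrays, and under spike-in scaling 7 of 9 differences were positive.

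Tfr2 encodes transferrin receptor 2, the receptor by which hepatocytes sense iron-loaded transferrin. Its levels were 4.97, 5.45 and 5.92 on sMaf CKO arrays 1, 2 and 3, against 6.22, 5.80 and 6.13 on control arrays 1, 2 and 3. Replicate 3 of sMaf CKO lay above control replicate 2, and the other sMaf CKO arrays lay below all controls. The difference was -0.60 (SE 0.29, limma adjusted p = 0.346, 95% interval -1.27 to 0.07), or -0.80 within slide 1 and -0.21 within slide 2. Leaving out sMaf CKO replicate 1 gave -0.36.

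Tfrc encodes transferrin receptor 1, which takes up iron in most cells and most strongly in erythroid precursors. Its levels were -1.39, -0.63 and -1.11 on sMaf CKO arrays 1, 2 and 3, against -2.84, 0.32 and -1.07 on control arrays 1, 2 and 3. The control arrays held both the highest and the lowest value. The difference was 0.15 (SE 0.71, limma adjusted p = 0.934, 95% interval -1.49 to 1.80), with 0.25 within slide 1 and -0.04 within slide 2. It was -0.67 without control replicate 1 and -0.05 without sMaf CKO replicate 2. Of 7 tested erythroid markers, 6 had the order of Tfrc on the control arrays, highest on array 2 and lowest on array 1, and Epor did not. Slc4a1 and Klf1 are shown from that list, chosen after their values were seen. Slc4a1, the band 3 anion exchanger of red cells, had levels of 0.64, -0.07 and -0.42 on sMaf CKO arrays 1, 2 and 3, against -2.21, 1.67 and -1.56 on control arrays 1, 2 and 3. Klf1, a transcription factor of erythroid precursors, had levels of -3.36, -2.30 and -2.82 on sMaf CKO arrays 1, 2 and 3, against -1.89, -0.54 and -1.37 on control arrays 1, 2 and 3. Its groups did not overlap, and its difference of -1.56 (SE 0.41, limma adjusted p = 0.144) had the opposite sign to that of Slc4a1 (0.75, SE 0.92, limma adjusted p = 0.717). The mean level of the 7 tested erythroid markers was 1.77, 1.46 and 1.36 on sMaf CKO arrays 1, 2 and 3, against 0.70, 2.46 and 1.17 on control arrays 1, 2 and 3. Their summed level ran from 309 to 598 on sMaf CKO arrays and from 229 to 505 on control arrays. The part of erythroid RNA in the level of Tfrc was not tested.

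Trf encodes transferrin, the plasma iron carrier that hepatocytes secrete. Its levels were 8.43, 8.67 and 8.99 on sMaf CKO arrays 1, 2 and 3, against 9.20, 8.90 and 9.02 on control arrays 1, 2 and 3. The highest sMaf CKO value lay among the controls, and the difference was -0.35 (SE 0.23, limma adjusted p = 0.488, 95% interval -0.88 to 0.19). It was -0.50 within slide 1 and -0.03 within slide 2. Leaving out sMaf CKO replicate 1 gave -0.21. Cp encodes ceruloplasmin, the copper ferroxidase that oxidises iron for loading onto transferrin. Its levels were 6.98, 7.01 and 7.30 on sMaf CKO arrays 1, 2 and 3, against 6.93, 7.18 and 7.44 on control arrays 1, 2 and 3. In both genotypes replicate 3, on slide 2, was the highest, and the difference was -0.08 (SE 0.23, limma adjusted p = 0.886, 95% interval -0.62 to 0.45). It was -0.06 within slide 1, -0.13 within slide 2 and 0.04 without control replicate 3.

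The ferritin genes did not pass, and both had negative differences. Ftl1 encodes the light chain, which helps iron nucleate inside the ferritin shell. Its levels were 6.75, 6.82 and 6.71 on sMaf CKO arrays 1, 2 and 3, against 8.16, 7.06 and 7.43 on control arrays 1, 2 and 3. All sMaf CKO arrays lay below all control arrays, and the sMaf CKO SD was 0.06 and the control SD 0.56 (n = 3 each). The difference was -0.79 (SE 0.30, unadjusted p = 0.0318, limma adjusted p = 0.255, 95% interval -1.49 to -0.09), with -0.83 within slide 1 and -0.72 within slide 2. Without control replicate 1, the highest array, it was -0.49.

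Fth1 encodes the heavy chain, the ferroxidase subunit. Its levels were 7.96, 8.40 and 8.65 on sMaf CKO arrays 1, 2 and 3, against 9.01, 8.50 and 8.82 on control arrays 1, 2 and 3. The highest sMaf CKO array lay above the lowest control array. The difference was -0.44 (SE 0.26, limma adjusted p = 0.440, 95% interval -1.05 to 0.17), or -0.58 within slide 1 and -0.17 within slide 2. Leaving out sMaf CKO replicate 1 gave -0.25. Ferritin genes have many processed pseudogenes, and whether the probes also read these was not tested.

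Negative differences were common among bright genes on these arrays, and the size of those of the ferritins, Trf and Tfr2 depended on the scaling. Of the 949 tested genes with a mean level of at least 5, which include 8 of the iron genes, 83.5% had a negative difference, with a median of -0.32. Under quantile normalization that median was 0.04. There the differences were -0.40 for Ftl1, -0.25 for Tfr2, -0.05 for Fth1 and 0.04 for Trf. Scaling on spiked-in control RNA, which put the median of all genes at 0.28, gave -0.46 for Ftl1, -0.27 for Tfr2, -0.11 for Fth1 and -0.02 for Trf. Ftl1, Tfr2 and Fth1 kept a negative difference under all 21 alternatives with a value. All 6 tested hepatocyte markers were also negative (median -0.51, 1 at an unadjusted p under 0.05, 0 past the threshold), with a summed level of 799 to 1378 on sMaf CKO arrays against 1246 to 1590 on control arrays. They were negative in 6 of 6 under quantile (median -0.21) and spike-in scaling (median -0.18) as well. The part of hepatocyte RNA content in the lower levels was not tested.

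**Figure D3:**
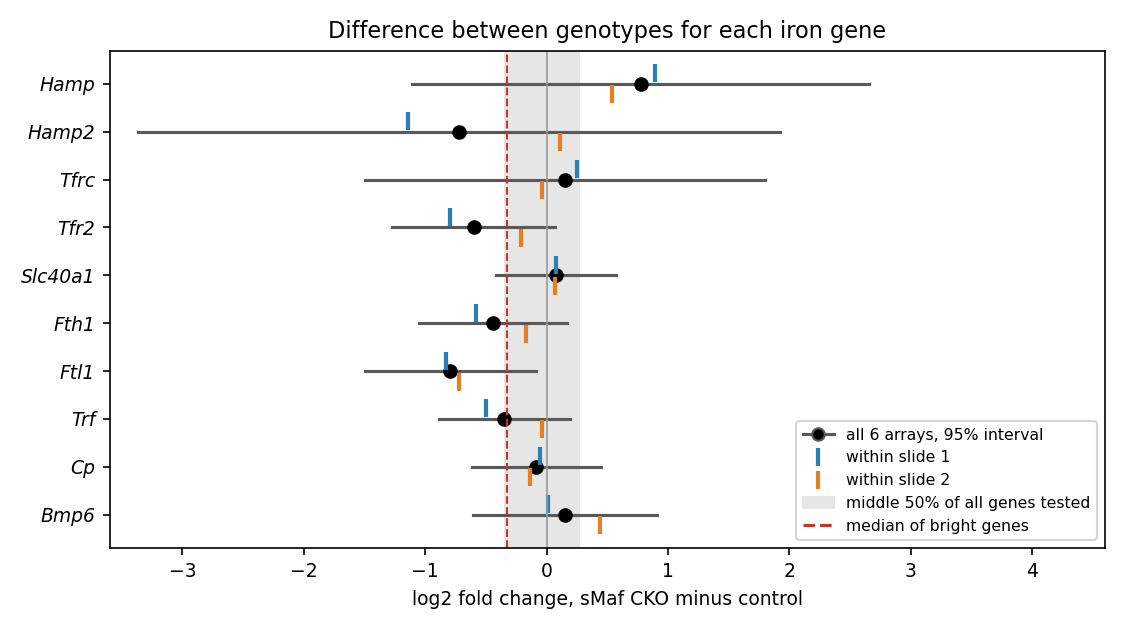
Difference in log2 level, sMaf CKO minus control (horizontal axis), for each iron gene, with the 95% interval from limma's fit and the values within slide 1 and within slide 2. The grey band holds the middle 50% of all 21064 genes tested and the dashed line is the median of the 949 bright genes, -0.32. The interval of Ftl1 lies below 0 and those of the other 9 genes span it.

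Ftl1 had the smallest p among the 10 genes. The genes whose levels over the 6 arrays were most like those of Ftl1 were Lrrc66 (Pearson r = 0.991), Ube2h (r = 0.989) and Cyp27a1 (r = 0.989), each over 6 arrays that share the genotype contrast. Cyp27a1, the sterol 27-hydroxylase of bile acid synthesis, had levels of 2.65, 2.89 and 2.54 on sMaf CKO arrays 1, 2 and 3, against 4.23, 3.17 and 3.47 on control arrays 1, 2 and 3 (difference -0.93, SE 0.31, limma adjusted p = 0.202). Lrrc66 differed by -1.01 (SE 0.33, limma adjusted p = 0.1995) and Ube2h, a ubiquitin-conjugating enzyme, by -0.64 (SE 0.25, limma adjusted p = 0.261).

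Among regulators of hepcidin, the interleukin 6 receptor gene was lower in sMaf CKO liver and the remaining tested genes did not pass. Of 35 listed genes 33 were tested, 0 rose and 1 fell, and 9 had an unadjusted p under 0.05, 6 of them higher and 3 lower, beside 16.8% of all genes. The median difference was -0.06, against -0.05 over all genes, and turned to 0.11 under quantile and 0.27 under spike-in scaling. Il6ra encodes a chain of the interleukin 6 receptor. Its levels were -1.30, -1.20 and -1.60 on sMaf CKO arrays 1, 2 and 3. They were 0.36, -0.05 and 0.02 on control arrays 1, 2 and 3. The groups did not overlap, and Il6ra was 2.78-fold lower (difference -1.48, SE 0.23, limma adjusted p = 0.0485), with -1.41 within slide 1 and -1.62 within slide 2. Il6st, Jak2, Stat3 and Socs3 of the same list differed by 0.24, -0.29, -0.06 and -0.11 (lowest limma adjusted p = 0.606). They were picked after their values were seen. The call of Il6ra lay at the threshold. It was lost under 12 of 20 alternatives with a test, among them each of the 6 arrays left out in turn (adjusted p from 0.0516 to 0.174), while the difference stayed between -1.62 and -1.15 under all of them.

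Id1 and Smad7 are target genes of BMP and SMAD signalling, and their values are given beside those of Bmp6 and Hamp. Id1 had levels of 2.65, 3.87 and 3.60 on sMaf CKO arrays 1, 2 and 3, against 1.49, 0.92 and 2.37 on control arrays 1, 2 and 3. All sMaf CKO arrays lay above all control arrays, but the difference of 1.78 did not pass (SE 0.45, limma adjusted p = 0.132). Smad7, an inhibitor of the pathway, differed by 0.70 (SE 0.30, limma adjusted p = 0.290) and Bambi, a decoy receptor, by 0.71 (SE 0.23, limma adjusted p = 0.202). Atoh8, another BMP target in liver, differed by 0.27 (limma adjusted p = 0.758), and Smad6, an inhibitor that BMP signalling also induces, by 0.018 (limma adjusted p = 0.983). Tmprss6, the protease that cuts the BMP co-receptor hemojuvelin, differed by -0.92 (SE 0.37, limma adjusted p = 0.270), and hemojuvelin itself (Hjv) by -0.07 and Hfe by -0.01. The ligand Inhbb, the activin B subunit, differed by 0.94 (SE 0.31, limma adjusted p = 0.206). Il6 itself was dim, well above background on 2 sMaf CKO arrays and 1 control array. These genes were picked once their values were known.

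Among genes of cellular iron transport and sensing, haem oxygenase was the exception to a list that otherwise did not pass. Of 30 tested genes 1 rose and 0 fell, 5 had an unadjusted p under 0.05 (16.8% of all genes did), and the median difference was -0.14, which turned to 0.04 under quantile and 0.19 under spike-in scaling. Hmox1, the enzyme that frees iron from haem, had levels of 6.92, 5.83 and 5.60 on sMaf CKO arrays 1, 2 and 3, against 3.19, 3.21 and 2.56 on control arrays 1, 2 and 3. It rose 8.74-fold (difference 3.13, SE 0.38, limma adjusted p = 0.0344), by 3.17 within slide 1 and 3.04 within slide 2. The call was lost under 8 of 20 alternatives with a test. Among these were the fits without sMaf CKO replicate 1 (difference 2.73, limma adjusted p = 0.0858), sMaf CKO replicate 2 (3.27, limma adjusted p = 0.0841), control replicate 1 (3.23, limma adjusted p = 0.143) and control replicate 3 (2.92, limma adjusted p = 0.0884). Kupffer cells clear red cells and use this enzyme. Their markers were summed at 194 to 426 on sMaf CKO arrays against 82.7 to 140 on control arrays. Leaving Marco out of that sum gave 154 to 220.0 on sMaf CKO arrays against 80.3 to 130.4 on control arrays. Of 8 markers of monocyte-derived macrophages, 7 had positive differences and 1 a negative difference (Ly6c2, -0.85, SE 0.36, limma adjusted p = 0.289). Their summed level ran from 46.3 to 75.7 on sMaf CKO arrays, against 40.5 to 55.7 on control arrays, so the sums overlapped. A sum is led by the brightest markers, and Ly6c2 was the brightest of the 8 on control arrays. The mean log2 level of the 8 did not overlap. It was 1.18, 0.75 and 0.56 on sMaf CKO arrays 1, 2 and 3, against -0.63, -0.76 and -1.09 on control arrays 1, 2 and 3. That mean includes control signals of Gpnmb that were not well above background. Singly, 6 of the 8, Ly6c2 among them, did not overlap (22.9% of all genes did not). Among the 8, 2 passed the test (0.541% of all genes did) and are named for that. Trem2, well above background on 3 sMaf CKO and 2 control arrays, differed by 4.18 (SE 0.34, limma adjusted p = 0.0105). Gpnmb was well above background on 3 sMaf CKO and 0 control arrays, so it passed the filter through the sMaf CKO arrays. Its measured difference was 5.52 (SE 0.47, limma adjusted p = 0.0117), with control signals that were not well above background. With the control level set at the lowest signal well above background on each array, Gpnmb was at least 31.1-fold higher in sMaf CKO liver. This bound was not tested. The part of macrophages in the level of Hmox1 was not tested. The iron regulatory proteins, which bind ferritin and transferrin receptor mRNAs, differed by -0.71 (Aco1, SE 0.26, limma adjusted p = 0.243) and -0.56 (Ireb2, SE 0.26, limma adjusted p = 0.333), values picked after they were seen.

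Genes of iron-sulphur cluster assembly did not pass either. Of 21 tested, 0 had an adjusted p under 0.05 with limma and 2 an unadjusted p under 0.05, a smaller share than the 16.8% of all genes. The median was -0.26, and 16 of 21 differences (76.2%) were negative, against 54.7% over all genes. Under quantile normalization 12 of 21 were negative, and under spike-in scaling 5 of 21. The 2 with the smallest p were Fdx1, a mitochondrial ferredoxin (-0.93, SE 0.31, limma adjusted p = 0.213), and Glrx5, a glutaredoxin that passes clusters on (-0.73, SE 0.28, limma adjusted p = 0.260).

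**Figure D4:**
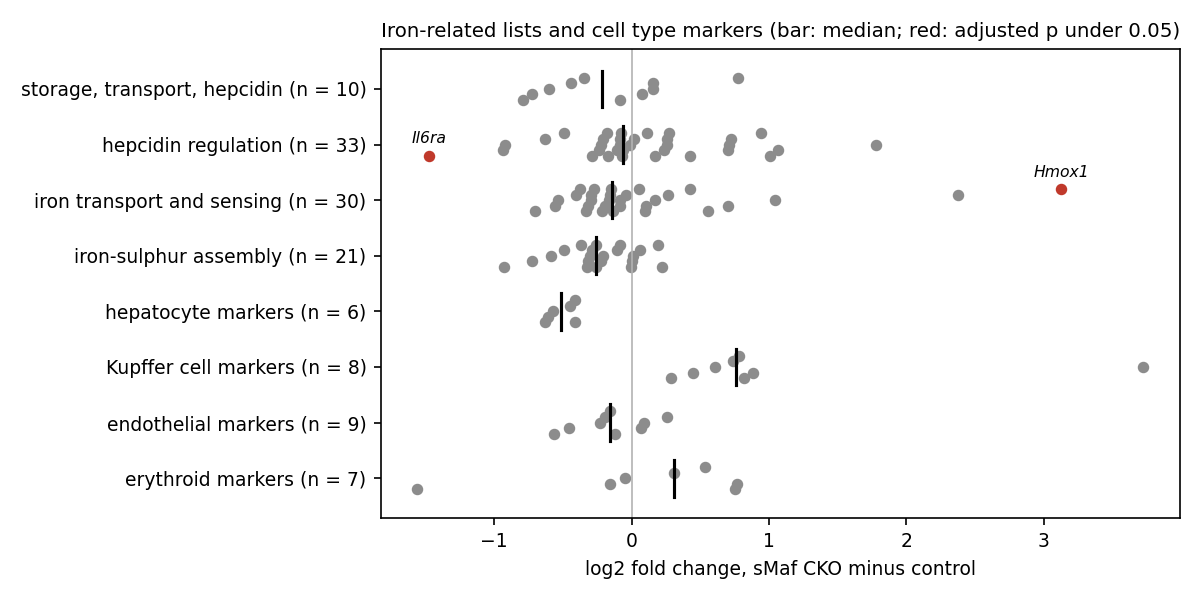
Difference in log2 level, sMaf CKO minus control (horizontal axis), for every tested gene of the iron lists and of the hepatocyte, Kupffer cell, endothelial and erythroid markers (rows, with the number tested). Grey points did not pass limma's test, red points had an adjusted p under 0.05, and bars are medians. Hmox1 at 3.13 and Il6ra at -1.48 are the called genes in the rows drawn, and none of the 10 storage, transport and hepcidin genes is red.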

How the data were processed

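Liver RNA of 3 sMaf CKO and 3 control mice was hybridised to one-colour (Cy3) Agilent arrays, 1 array per sample. Per the file headers, the authors extracted spot intensity with Agilent Feature Extraction 10.7.3.1, and the deposited processed intensity is corrected for background within each array. Signals were taken as log2 minus the array's 75th percentile. The deposited value table, used only as an alternative, holds log2 values with column medians between -0.11 and 0.092. Set against the scaled signals centred on each probe's median over the arrays, its columns had r of at least 0.9996, and 99% of values differed by at most 0.0107, which gives its scale, centring and direction.

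A probe was kept where its signal was well above background on 3 or more of the 6 arrays, 27865 in all, and the brightest probe stood for a gene. limma 3.58.1 in R 4.3.3 compared sMaf CKO with control with an adjusted p threshold of 0.05. Accessions were named through RefSeq's GRCm38.p6 table, while the array design is on mm9, so no coordinates of genes or probes are given, and the promoter windows carry that table's GRCm38.p6 coordinates. The members and lists were chosen with earlier results of these data known. Named were all members, list genes past the threshold (otherwise the 2 with the smallest p), the 3 genes most like the member with the smallest p, and the small Maf genes. Other genes are marked in the text as chosen after their values were seen, or serve as a check of sex or as markers. List medians by scaling and the hepcidin gap under quantile normalization were added after the data were seen. Same-numbered arrays correlated in their deviations at 0.063, 0.166 and 0.424, so the numbers were not taken as pairs. Other scalings, filters, models and left-out arrays were tried.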

Additional observations from a re-analysis of the deposited data

How the results depend on the processing

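None of the 10 iron genes passed limma's adjusted p of 0.05 under any alternative with a test. Of the 10, Tfr2, Fth1 and Ftl1 kept their sign under all 21 alternatives. Signs turned as follows, with the cause not tested. Quantile normalization gave 0.044 for Trf and 0.30 for Cp, and spike-in scaling 0.25 for Cp. The mean of both probes gave -0.073 for Bmp6. Slide 2 alone gave 0.11 for Hamp2, -0.036 for Tfrc and -0.29 for Mafk, and array weights -0.28 for Maff. Leaving out 1 array gave -0.20 for Hamp, -0.37 for Maff and -0.070 for Mafk (control replicate 2), 0.41 for Hamp2 (sMaf CKO replicate 1), -0.053 for Tfrc and -0.023 for Slc40a1 (sMaf CKO replicate 2), -0.67 for Tfrc (control replicate 1), 0.045 for Cp and -0.087 for Bmp6 (control replicate 3), and -0.11 for Maff (sMaf CKO replicate 3). The opposite ends of these leave-one-out ranges were 1.30 for Hamp, -1.71 for Hamp2, 0.91 for Tfrc, 0.16 for Slc40a1, -0.21 for Cp, 0.50 for Bmp6, 0.52 for Maff and 0.44 for Mafk.

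The count of all genes called, 114 as reported, moved more: 22 under quantile normalization (18 rises, 81.8%, against 71.1%), 252 under median scaling, 12 under spike-in scaling, 48 with the percentile over probes above background, 1 without the filter, 269 with probes above background on all 6 arrays, 340 with slide as a block, 308 with trend and robust settings, 513 with array weights, 194 on slide 1 alone and 3 at an adjusted p under 0.01. Leaving out 1 array gave 3 (sMaf CKO replicate 1) to 294 (sMaf CKO replicate 3), with 11 without sMaf CKO replicate 2, and 6, 175 and 22 without control replicates 1, 2 and 3. The replicate block gave 290, called none of the 10 iron genes and called Mafg (limma adjusted p = 0.0256). In its deviations sMaf CKO array 1 correlated best with control array 2 (0.292), not with its own number. The sMaf CKO arrays 2 and 3 correlated best with their own numbers (0.166 and 0.424), and replicate 3 of both genotypes shared slide 2. With 3 arrays a genotype, the intervals for Hamp, Hamp2 and Tfrc span more than 3 log2 units.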

Other observations

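Control array 2, which was low for Hamp and Hamp2, was also the lowest array for every probe of Saa1, Saa2 and Saa3, the serum amyloid A genes of the acute phase. Saa2 had levels of 4.58, 3.42 and 5.03 on sMaf CKO arrays 1, 2 and 3, against 5.25, 2.84 and 4.29 on control arrays 1, 2 and 3. On sMaf CKO array 2, the second lowest for every Saa probe, Hamp was at 6.99. On sMaf CKO array 1, the lowest array for Hamp2 (4.70), Saa2 was at 4.58. Not every related gene was low on control array 2. Socs3 had its highest level there, 3.24, against 2.32 and 2.22 on control arrays 1 and 3. On sMaf CKO arrays 1, 2 and 3 Socs3 was at 3.17, 2.11 and 2.17. Cp was at 7.18 on control array 2, between 6.93 and 7.44 on control arrays 1 and 3. The Saa genes and Socs3 were chosen after their values were seen, and a shared state of that array was not tested.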
